A study of Arabidopsis thaliana with 8 samples.

Results

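The transcripts described here are those that hypoxia lowered in Arabidopsis seedlings whether or not the trihelix transcription factor HRA1 was overexpressed. They are 146 of the 22746 non-control probe sets of the ATH1 array. A probe set was included if its mean fell by at least 1 log2 unit under hypoxia in Col-0 and also in OE-HRA1, with every hypoxia array below both air arrays of the same genotype. The hypoxia responses therefore chose the members and are given below as a description, without a test.

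The 8 arrays fell into 4 groups of 2, and all held RNA of whole seedlings aged 7 d in the Col-0 background. Wild type Col-0 and OE-HRA1 (35S:HRA1:FLAG, in which the constitutive CaMV 35S promoter drives tagged HRA1) were kept for 2 h in argon, or for 2 h in chambers open to air. Each OE-HRA1 group held 1 array of line #1 and 1 of line #2, which are independent single-insertion lines, and each Col-0 group held replicates 1 and 2. The labels do not say whether the Col-0 replicates were separate cultures, so the p-values below measure the spread between these arrays only. The argon treatment was given under dim light, and the light level of the air treatment is not given in the sources used here, so light and oxygen cannot be told apart. Both Col-0 hypoxia arrays name the air treatment in their source field but hypoxia in their titles, and they were used as hypoxia arrays.

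Oxygen shortage stops mitochondrial respiration and leaves plant cells with little ATP, and growth stops soon afterwards. Growth of a seedling rests on wall loosening by expansins and xyloglucan enzymes, on peroxidases that stiffen or open the wall, on directed transport of auxin, and on receptor kinases that read peptide and steroid signals. Root hairs are single cells that grow at the tip and need many of the same wall proteins. Whole seedlings were extracted, so fewer cells of a type and less RNA per cell cannot be told apart.

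In air the HRA1 probe set read 7.20 and 7.00 log2 units in Col-0 and reached 12.98 and 13.09 in the overexpressing lines. Array medians lay between 7.15 and 7.26, and the arrays of a group correlated at 0.994 to 0.997. None of the 8 shoot and root marker genes fixed for a tissue check had an assigned probe set, so the tissue was not checked. A single gene was assigned to 135 of the 146 members, 67 through the platform annotation and 68 through the study's table of differentially expressed genes. Genes assigned only through that table had been picked by the study on these arrays, so counts over them are not independent evidence. The other 11 members had no single gene and are not named. The 135 genes were distinct, and no 2 of them were adjacent protein-coding genes on the TAIR10.1 map.

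In air the median member read above most probe sets, and under hypoxia it lay near the middle of the array. A fall of at least 1 log2 unit needs an air signal above background, so the rule itself favours such levels. Their median in Col-0 was 8.68 and 8.63 log2 units in air and 7.21 and 7.24 after hypoxia, by array. The OE-HRA1 medians were 8.52 and 8.60 in air, then 7.07 and 7.02 after hypoxia. Between 69.5% and 71.8% of all probe sets read below the member median on an air array, and 48.1% to 50.2% on a hypoxia array. Single members ranged from 5.68 to 12.19 in air and from 4.56 to 10.89 under hypoxia.

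The signal log2 ratio (SLR), the difference of group means in log2 units, had a median of -1.26 over the members in Col-0 (range -2.85 to -1.0) and of -1.37 in OE-HRA1 (range -2.76 to -1.01). Over all 22645 probe sets tested the medians were -0.01 and 0.01. In limma, 138 members were called lower in Col-0 and 140 in OE-HRA1 (SLR below -1, Benjamini-Hochberg adjusted p under 0.01), and 136 in both. The background was 0.835% of probe sets called lower and 2.02% called higher in Col-0, and 1.12% and 1.96% in OE-HRA1. The rule used these contrasts, so nothing is read from the member counts. At the threshold, UGT85A2, AGP2 and AT2G33170 were the last members inside, with SLRs of -1.0 for UGT85A2 and AGP2 in Col-0 and of -1.01 for AT2G33170 in OE-HRA1. ABCG35 (SLR of -1.0 in OE-HRA1), P1R1 (-1.0 in Col-0) and a probe set without a single gene (-1.0 in Col-0) were the first outside, their unrounded values being just above -1. ABCB15 passed both thresholds but was left out, since its second Col-0 hypoxia array (6.03) read above its first air array (5.97).

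**Figure D1:**
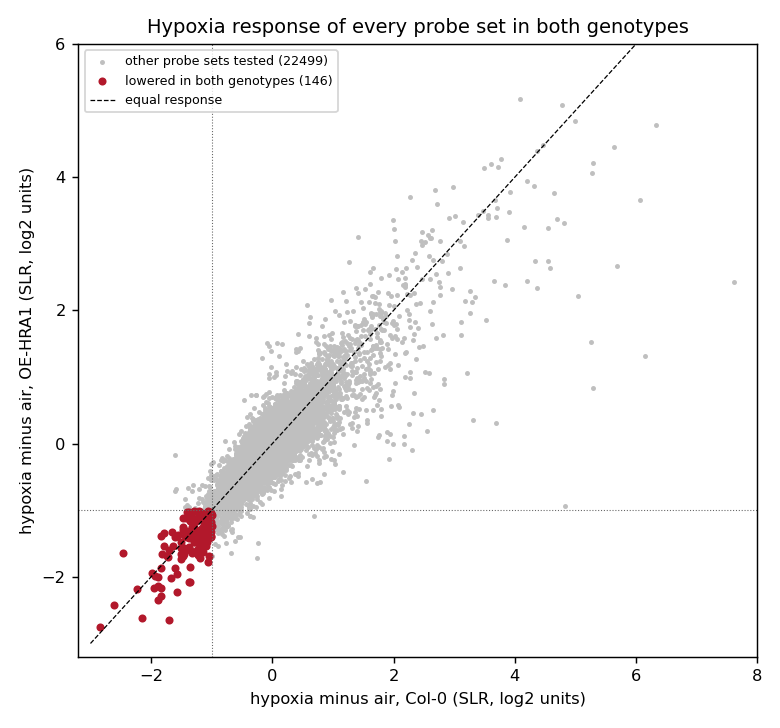
Each point is a probe set, with its SLR of hypoxia against air in Col-0 on the x axis and in OE-HRA1 on the y axis, both in log2 units and from 2 arrays per group. The 146 members fill the lower left corner below -1 on both axes, which the rule requires. By cutting both axes the rule also leaves out unequal responses, so their place near the dashed line of equal response is partly built in.

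Col-0 and OE-HRA1 arrays do not overlap, so probe sets can be chosen in 1 genotype and read in the other. On the Col-0 arrays alone the rule picked 202 probe sets (0.892%), with a median SLR of -1.19. On the OE-HRA1 arrays, which had no part in that choice, all 202 had an SLR below 0, with a median of -1.2 and quartiles of -1.5 and -0.98. Of the 202, 140 (69.3%) were called lower in OE-HRA1 and 0 higher, against 1.12% called lower over all probe sets. With the spread estimated from the OE-HRA1 arrays alone, 145 were called, against 1.20%. Chosen on the OE-HRA1 arrays alone, 274 probe sets (1.21%) had a median SLR of -1.19 there and of -1.03 in Col-0, and 273 of them were below 0 in Col-0. In this direction 138 (50.4%) were called lower in Col-0 against 0.835% of all, and 97 (35.4%) against 0.574% with the spread of the Col-0 arrays alone. The 146 members make up 72.3% of the first selection and 53.3% of the second. This comparison was added after the results had been seen.

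**Figure D2:**
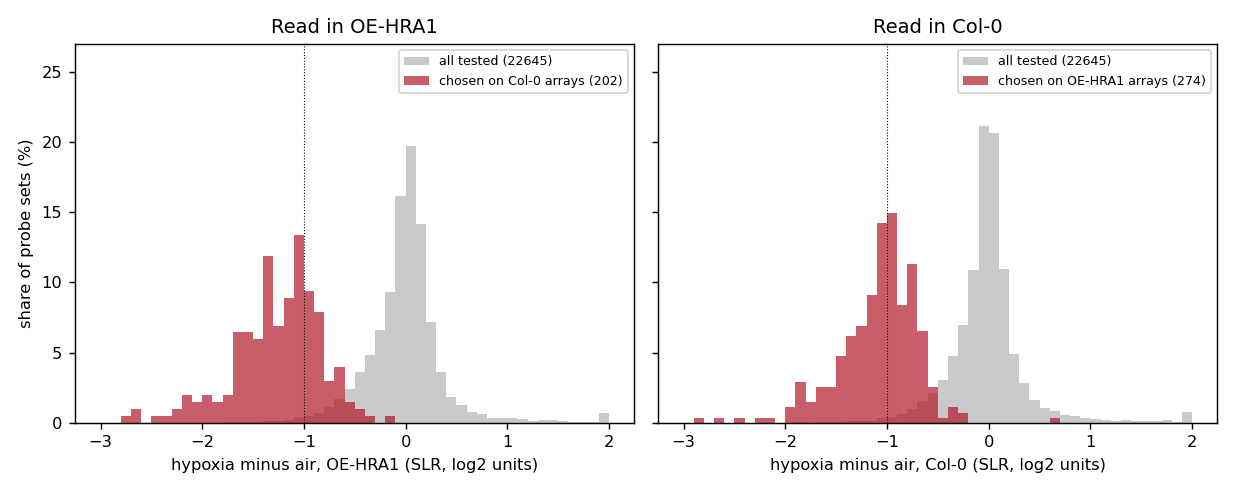
Histograms of the SLR of hypoxia against air, in log2 units, as a share of probe sets; values above 2 are counted in the last bin. Left, 202 probe sets chosen on the Col-0 arrays and read in OE-HRA1 (median -1.2); right, 274 chosen on the OE-HRA1 arrays and read in Col-0 (median -1.03), each beside all 22645 tested.

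The 10 members with a single gene and the lowest mean response include genes linked to auxin, immunity, brassinosteroids, the wall and indole metabolism, and a gene of no given function. AT3G53250, annotated as the small auxin-up RNA gene SAUR57, read 8.18 and 7.88 in Col-0 air and 5.15 and 5.19 in Col-0 hypoxia. The OE-HRA1 values were 7.29 and 8.11 in air, falling to 4.93 and 4.95. Its SLRs were -2.85 in Col-0 and -2.76 in OE-HRA1 (SE 0.23 each), and its OE-HRA1 air arrays lay further apart than those of any other group.

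FLS2, the receptor kinase that recognizes bacterial flagellin, read 7.34 and 7.10 in Col-0 air and 4.61 on both Col-0 hypoxia arrays. Its values in OE-HRA1 were 6.95 and 7.42 in air and 4.78 and 4.75 under hypoxia. The hypoxia values of both genotypes lay close to the lowest member value on any array, 4.56. Present calls were not made here, so signals as low as those of SAUR57 and FLS2 under hypoxia are not shown to be above background, and these SLRs may understate the fall. AT5G57760, for which no function is given here, fell in the same range of change, from 7.90 and 7.68 to 5.65 and 5.46 in Col-0 and from 7.43 and 7.85 to 5.50 and 5.42 in OE-HRA1.

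BEE3, a bHLH factor induced by brassinosteroids, read 8.96 and 8.78 in Col-0 air and 7.44 and 6.54 under hypoxia. The OE-HRA1 air arrays read 9.02 and 9.31, and the hypoxia arrays 6.41 and 7.25. Its hypoxia arrays lay wide apart in both genotypes and still below all 4 air arrays. EXL5, an EXORDIUM-like wall protein, was far more abundant, at 10.95 and 10.69 in Col-0 air and 9.25 and 8.71 under hypoxia. Its OE-HRA1 values were 11.43 and 11.39 in air and 9.32 and 9.16 under hypoxia.

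AT5G02760, a clade D protein phosphatase 2C (APD7), had SLRs of -1.84 in Col-0 and -2.29 in OE-HRA1 (SE 0.18 each). The MYB-type gene AT5G58900 had SLRs of -1.94 and -1.98 (SE 0.10), the smallest SE of the 10.

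**Figure D3:**
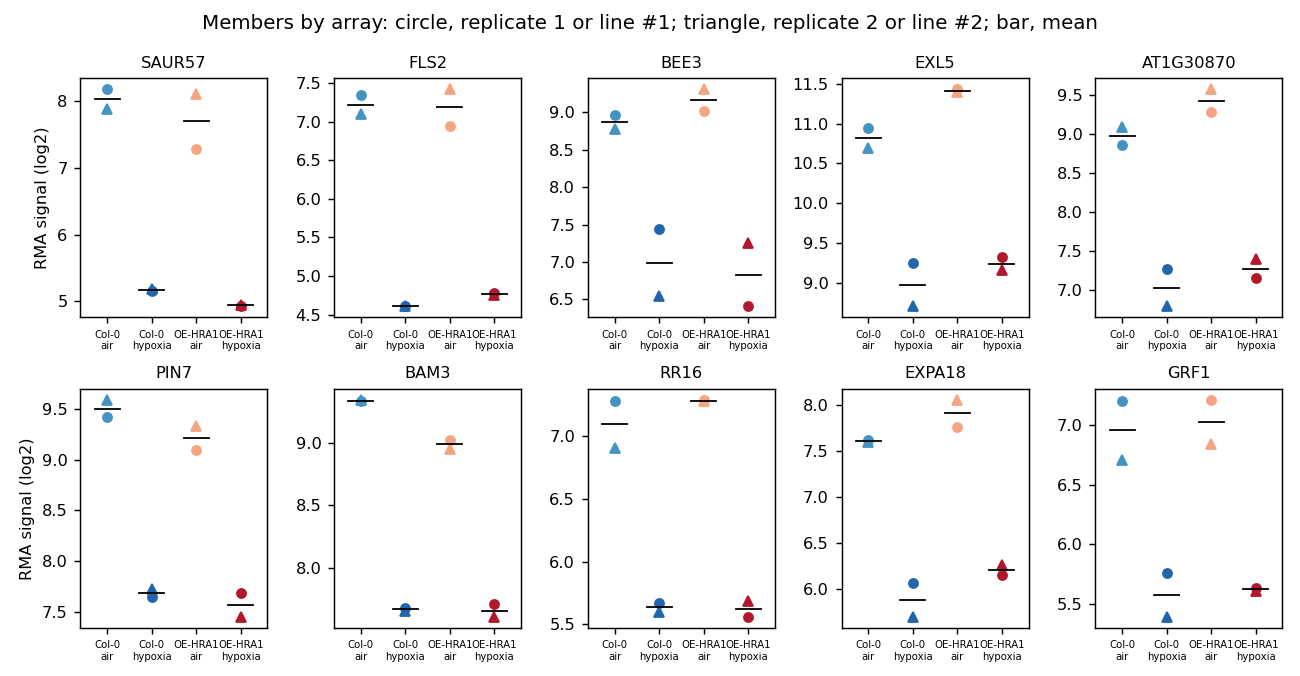
RMA signal in log2 units of 10 members on every array, by genotype and treatment, each panel on its own axis that does not start at 0. Circles are replicate 1 or line #1, triangles replicate 2 or line #2, and bars the mean of 2. In each panel the hypoxia arrays lie below the air arrays of the same genotype, as the rule requires. SAUR57 and FLS2 show the widest gaps, with SLRs of -2.85 and -2.61 in Col-0.

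Wall proteins and enzymes were 23 of the members. They include 4 alpha-expansins, EXPA7, EXPA15, EXPA16 and EXPA18, which loosen walls without hydrolysis. EXPA18, a root hair expansin, read 7.62 and 7.60 in Col-0 air and 6.07 and 5.70 under hypoxia, and 7.77 and 8.06 falling to 6.16 and 6.26 in OE-HRA1. EXPA7, also of root hairs, had SLRs of -1.17 and -1.33, EXPA15 of -1.34 and -1.16, and EXPA16 of -1.31 and -1.12, in Col-0 and OE-HRA1. The family did not move as a block. Of its 12 probe sets tested, 4 were called lower and 1 higher in each genotype, the latter being EXPA10 with SLRs of 1.66 and 1.32.

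Xyloglucan endotransglucosylases, which cut and rejoin wall xyloglucan, split in the same way. XTH31 (SLRs of -1.79 and -1.34) and XTH13 (-1.19 and -1.34) were members, and in Col-0 3 of the 17 probe sets of the list were called lower and 3 higher. The 3 called higher were TCH4 (SLR 2.61 in Col-0), XTR6 (2.26) and XTH18 (1.24). The other wall members include RHS12, a pectin methylesterase of root hairs (-1.18 and -1.62), the cellulase GH9C1 (-1.04 and -1.30), the cellulose synthase-like ATCSLB05 (-1.04 and -1.27) and TBL27, which acetylates xyloglucan (-1.61 and -1.40).

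Arabinogalactan and fasciclin-like proteins, proteoglycans of the cell surface, gave 1 member, AGP2, among 7 probe sets of the list. The other 6 were below 0 in both genotypes but missed the rule in Col-0, where their SLRs ran from -0.92 (AGP4) to -0.37 (AGP3), against -1.23 to -1.09 in OE-HRA1. All 7 were called lower in OE-HRA1 and 1 in Col-0, but none was called for the interaction, and all 7 were assigned through the study's table only.

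Class III peroxidases, secreted haem enzymes that act on wall polymers and reactive oxygen, gave 8 members, 7 of them with a single gene. The list holds 57 tested probe sets, and its median SLR was -0.12 in Col-0, with 6 called lower in Col-0, 9 in OE-HRA1 and 0 higher. Some of them read very low on all arrays, such as AT1G77100 (mean 4.28) and AT2G24800 (4.38), and had little room to fall. The list median therefore does not describe expressed peroxidases alone. AT1G30870 read 8.86 and 9.08 in Col-0 air and 7.26 and 6.79 under hypoxia, and 9.28 and 9.57 falling to 7.15 and 7.39 in OE-HRA1. RHS18 (SLRs of -1.57 and -2.22), RHS19 (-1.48 and -1.69), AT3G49960 (-1.35 and -1.85) and AT4G30170 (-1.44 and -1.39) followed. AT1G34510 was the most variable, at 8.01 and 6.87 in Col-0 air and 6.31 and 5.17 under hypoxia. Col-0 replicate 2 thus read lower than replicate 1 in both treatments. The OE-HRA1 arrays lay close together, at 8.37 and 8.61 in air, then 5.86 and 5.82.

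Root hair genes were the list with the most members, 13 of its 19 tested probe sets. In Col-0 11 of the 19 were called lower and in OE-HRA1 15, and 0 were called higher in either. Besides the expansins, peroxidases and RHS12 they include RHS13 (SLRs of -1.36 and -1.59), the proline-rich proteins PRP1 (-1.22 and -1.59) and PRP3 (-1.23 and -1.67), and TRH1, a potassium transporter needed for tip growth (-1.12 and -1.30). Among the 6 that were not members, SCN1, which restricts hair initiation to a single site, read almost the same in air and hypoxia (SLRs of 0.00 and -0.05). Through the platform annotation alone, which was not picked on these arrays, 8 probe sets were assigned, of which 6 were members. Of these 8, 5 were called lower in Col-0 and 7 in OE-HRA1. Membership and calls rest on the contrasts that the rule used, and the list was written with earlier results known. These counts are therefore a description only.

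Receptor kinases, receptor-like proteins, kinases and phosphatases made up 23 members. BAM3, a receptor kinase of root phloem development, read 9.33 and 9.34 in Col-0 air and 7.68 and 7.66 under hypoxia, and 9.02 and 8.95 falling to 7.71 and 7.61 in OE-HRA1. Its relative BAM2 had SLRs of -1.14 and -1.34, HSL1, a HAESA-like receptor kinase, of -1.51 and -1.65, and BRL2, a vascular relative of the brassinosteroid receptor, of -1.30 and -1.48. All 11 probe sets of the list of stem cell and growth receptors were below 0 in both genotypes, CLV1 at -0.89 and -1.09 among them. Over all probe sets 53.5% were below 0 in Col-0 and 48.0% in OE-HRA1. In Col-0 5 of the 11 and in OE-HRA1 8 were called lower, against 0.835% and 1.12% of all. However, 9 of the 11 were assigned only through the study's table, which was picked on these arrays. Neither the shared direction nor the calls are therefore independent evidence.

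The immune list had 3 genes among the members. After FLS2 came DND1, a cyclic nucleotide-gated channel (SLRs of -1.32 and -1.64), and RRS1, an intracellular receptor with a WRKY domain. RRS1 had a member probe set (-1.07 and -1.25) and another that missed the rule in OE-HRA1 (-1.03 and -0.85), so its probe sets agree in direction and differ at the threshold. EFR, the receptor for bacterial elongation factor Tu and a relative of FLS2 in function, was not called (SLRs of -0.15 and -0.23, adjusted p = 0.435 and 0.188 in limma). In air it read only 5.06 and 5.13 in Col-0 and 5.27 and 5.35 in OE-HRA1. The lowest member value on any array was 4.56, so EFR had little room to fall and is no contrast to FLS2.

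The members include 4 auxin carriers, which move the hormone between cells. PIN7, an efflux carrier, read 9.42 and 9.59 in Col-0 air and 7.65 and 7.72 under hypoxia, and 9.10 and 9.33 falling to 7.68 and 7.45 in OE-HRA1. PIN4 had SLRs of -1.70 and -1.60 with an SE of 0.08, PIN3 of -1.06 and -1.30, and the influx carrier LAX3 of -1.16 and -1.27. All 4 were assigned through the study's table only.

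Transcription factors, chromatin proteins and response regulators were 24 of the members. GRF1 and GRF3, growth-regulating factors of leaf growth, had SLRs of -1.38 and -1.27 in Col-0 and -1.41 and -1.17 in OE-HRA1, and GRF2 stayed outside at -0.82 in both. The GRF genes and NAC6 (ANAC092, a senescence factor, -1.14 and -1.49) are textbook targets of microRNAs, which gave 3 members among 14 probe sets of that list. The type-A response regulators RR16 and ARR6, which are induced by cytokinin and damp its signal, had SLRs of -1.46 and -1.29 in Col-0 and -1.66 and -1.38 in OE-HRA1. RR16 read 7.28 and 6.91 in Col-0 air and 5.67 and 5.6 under hypoxia, and 7.29 and 7.28 falling to 5.56 and 5.69 in OE-HRA1. Of the same family, ARR15 did not fall (0.38 and 0.32, not called), and RR3 was not called either (0.13 and -0.21).

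Hormone genes other than auxin carriers went in several directions. BR6OX2, a cytochrome P450 of the last steps of brassinosteroid synthesis, had SLRs of -1.29 and -1.01. BEE1, a close relative of BEE3, rose in Col-0 by 1.98 and not in OE-HRA1 (-0.01), and its interaction was called (SLR -1.99, adjusted p = 0.00573). The ethylene receptor ERS1 was a member at -1.24 and -1.43, as was AT5G10120 of the EIN3 family at -1.51 and -1.73. The receptor ETR2 rose by 1.93 in Col-0 and read -0.24 in OE-HRA1 (interaction SLR -2.16, adjusted p = 0.00827). FZR2, an activator of the anaphase-promoting complex in endoreduplication, was the cell cycle member at -1.04 and -1.07.

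The remaining members were named as examples of their role after their values had been seen. Metabolic genes (21 members) include KCS19 of very long chain fatty acid synthesis (SLRs of -1.78 and -1.53), the arginine decarboxylase ADC1 of polyamine synthesis (-1.29 and -1.38), and ASE2 of purine synthesis (-1.02 and -1.40). The bromodomain genes GTE7 (-1.57 and -1.96) and GTE2 (-1.07 and -1.19) and the glucan synthase-like GSL1 (-1.51 and -1.56) were members as well. Members of other or unknown function numbered 34.

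Responses by line are given as a description. The rule required their mean to be at or below -1 without overlap of arrays, so likeness between the lines is partly built in. The median difference between hypoxia and air was -1.36 in line #1 and -1.38 in line #2, and 125 of the 146 members reached -1 in both lines. The widest gap was at PRP1, which differed by -1.01 in line #1 and -2.17 in line #2.

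Whether HRA1 overexpression altered these transcripts was asked in air and under hypoxia, in 2 contrasts that the rule did not use, although they share its arrays. In air 0 members were called different between the genotypes, against a background of 0.11% in either direction (0.0707% lower, 0.0397% higher). At an unadjusted p under 0.05, 17 members were lower and 21 higher in OE-HRA1, or 11.6% and 14.4%, against 8.09% and 6.49% of all probe sets. The median member differed by -0.05, against 0.01 over all.

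At 3 members an adjusted p under 0.05 was reached in air. EXPA15 read 9.80 and 10.37 in Col-0 air and 8.79 and 8.74 in OE-HRA1 air, and the groups did not overlap (SLR -1.32, SE 0.20, adjusted p = 0.0231). TBL27 read 8.46 and 8.64 against 7.38 and 7.67 (SLR -1.02, SE 0.13, adjusted p = 0.0145). AT1G19900 went the other way, with 7.37 and 6.86 in Col-0 and 8.02 and 8.43 in OE-HRA1 (SLR 1.11, SE 0.19, adjusted p = 0.0369). None passed the adjusted p of 0.01 that a call required.

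The root hair list read higher in OE-HRA1 in air, which is given as a description, and none of its genes was called. All 19 probe sets of the root hair list had an SLR above 0 (median 0.46), and at 16 of them both OE-HRA1 arrays lay above both Col-0 arrays, which was the case at 25.4% of all probe sets (22.9% for the reverse). Of the 19, 13 were members, and the rule favours members with high OE-HRA1 air values. Through the study's table only, 11 of the 19 were assigned. Nothing is therefore read from the root hair count. At an individual level the largest of the 19, AT1G34510, had an SLR of 1.05 with an SE of 0.41 (adjusted p = 0.288). Of the 8 peroxidase members, 7 had both OE-HRA1 air arrays above both Col-0 air arrays, and their median SLR was 0.52. The rule favours such values here too, so nothing is read from the peroxidase count either. AT1G34510, AT1G30870, RHS18, RHS19 and AT3G49960 are also in the root hair list and are no second observation. Over the 57 probe sets of the peroxidase list the median was 0.07, with 17 below 0, and both OE-HRA1 arrays lay above both Col-0 arrays at 19 and below at 6. The 19 root hair probe sets were read on the same 4 air arrays and are not independent of each other. Under hypoxia the root hair median was 0.12, with 6 of 19 above and 3 below without overlap (29.5% and 23.9% of all probe sets).

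Under hypoxia 1 member was called different between the genotypes, or 0.685% against 0.932% of all probe sets in either direction (0.305% higher, 0.627% lower). It was ALMT1, a malate channel by which roots release malate in response to aluminium. ALMT1 read 6.70 and 6.56 in hypoxic Col-0 and 8.74 and 8.18 in hypoxic OE-HRA1, without overlap (SLR 1.83, SE 0.27, adjusted p = 0.00733). In air it read 8.89 and 8.03 in Col-0 and 9.88 and 9.80 in OE-HRA1 (SLR 1.38, SE 0.27, adjusted p = 0.0569). Hypoxic OE-HRA1 seedlings thus held about as much ALMT1 signal as Col-0 in air, and its interaction was not called (SLR 0.45, SE 0.38, adjusted p = 0.946). The call was lost without either hypoxia array of Col-0 or OE-HRA1 or either OE-HRA1 air array (adjusted p of 0.0173 to 0.047), and with OE-HRA1 line as a block (0.0104). With the replicate number as a block ALMT1 (adjusted p = 0.00289) and EXPA15 (SLR -1.13, adjusted p = 0.00685, against 0.0141 without the block) were called, and 2 members in all.

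Among smaller differences under hypoxia, more members read lower in OE-HRA1 than higher, which is given as a description. AT5G44680 read 9.09 and 8.88 in hypoxic Col-0 and 8.22 and 8.27 in hypoxic OE-HRA1 (SLR -0.74, SE 0.10, adjusted p = 0.00491), although in air the genotypes read 10.43 and 10.31 against 10.39 and 10.25. Its interaction was not called (SLR -0.69, SE 0.14, adjusted p = 0.162, or 0.0874 to 0.585 over the alternatives). ASE2 read 8.32 and 8.38 against 7.66 and 7.72 (SLR -0.66, adjusted p = 0.00518), and TBL27 7.05 and 6.83 against 6.20 and 6.06 (SLR -0.81, adjusted p = 0.00975). These 3 passed the adjusted p but not the minimum SLR of 1. At an unadjusted p under 0.05, 31 members were lower and 10 higher, or 21.2% and 6.85%, against 12.5% and 12% of all probe sets. The rule chose the members on low values of these same hypoxia arrays, so no effect of HRA1 is read from these counts. The largest difference that was not called was that of EXPA15, which read 8.53 and 8.95 against 7.51 and 7.70 (SLR -1.13, SE 0.20, adjusted p = 0.0141). It was followed by AT3G24080 (-0.92, adjusted p = 0.0653) and AT5G02760 (-0.82, adjusted p = 0.033), and on the other side AT5G24570 (0.76, adjusted p = 0.0601) and AT4G30170 (0.75, adjusted p = 0.069).

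**Figure D4:**
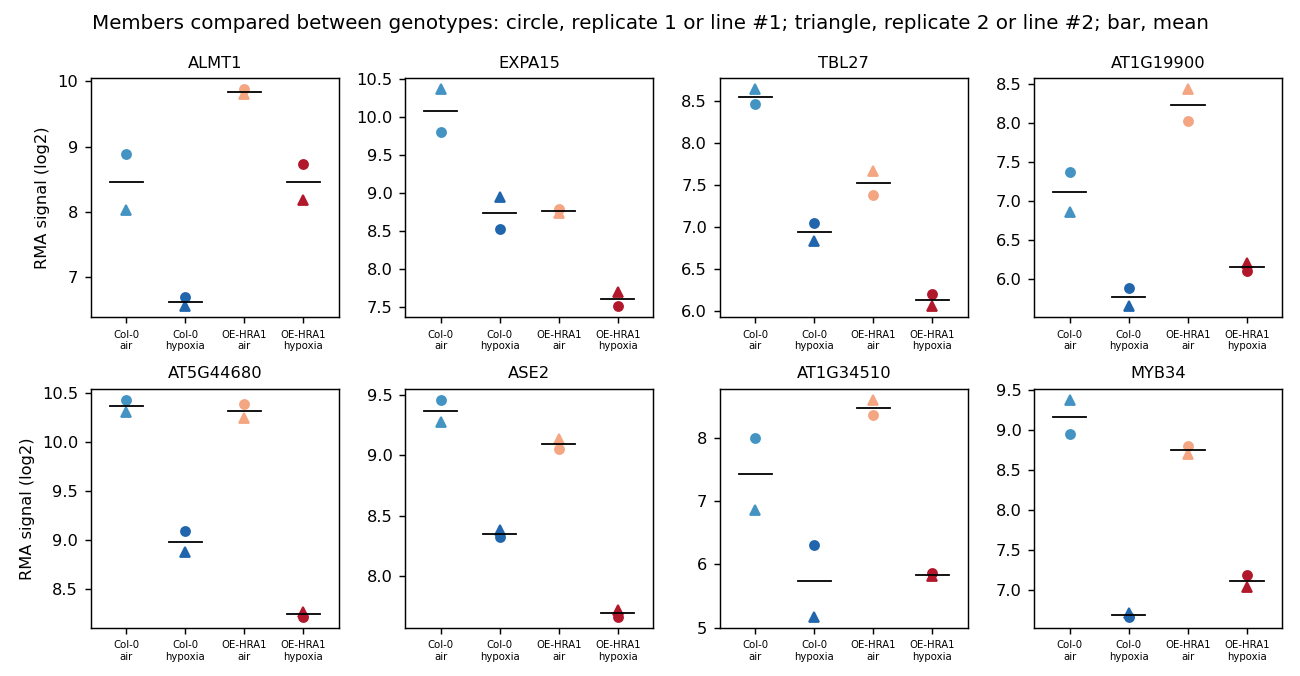
RMA signal in log2 units of 8 members on every array, by genotype and treatment, each panel on its own axis that does not start at 0. Circles are replicate 1 or line #1, triangles replicate 2 or line #2, and bars the mean of 2. ALMT1 lies higher and EXPA15 and TBL27 lower in OE-HRA1 in air and hypoxia, AT5G44680 lies lower in OE-HRA1 in hypoxia (SLR -0.74) and overlaps in air, and the Col-0 arrays of AT1G34510 lie more than 1 log2 unit apart.

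The interaction, the OE-HRA1 response minus the Col-0 response, is made of the same SLRs that chose the members, and the rule requires a fall of at least 1 in both, so it is given as a description and nothing is read from its counts. It was called at 0 members, against 0.168% of all probe sets (0.163% below 0, 0.00442% above), and had a median of -0.08 and a range of -0.95 to 0.84. It was below 0, a steeper fall in OE-HRA1, at 96 of the 146 members.

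The extremes of the interaction did not pass adjustment. AT1G34510 was lowest (-0.95, SE 0.58, adjusted p = 0.931), followed by AT1G19900 (-0.72, SE 0.27, adjusted p = 0.753) and DREB26, an AP2/ERF factor (-0.72, SE 0.27, adjusted p = 0.771). MYB34, which activates tryptophan and indole glucosinolate genes, was highest. It read 8.95 and 9.38 in Col-0 air and 6.66 and 6.71 under hypoxia, and 8.80 and 8.70 falling to 7.19 and 7.04 in OE-HRA1 (interaction SLR 0.84, SE 0.19, adjusted p = 0.263). Its order between genotypes was opposite in air and hypoxia, and the arrays overlapped in neither. ALMT1 and XTH31 came next, each at 0.45 (adjusted p = 0.946 and 0.875).

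By role, the interaction was below 0 at 7 of 8 peroxidase members (median -0.33) and at 3 of 9 transporters (median 0.10). It was below 0 at 16 of 23 wall members, 17 of 23 receptor kinases and kinases, 15 of 24 members of transcription and 15 of 21 of metabolism. The share was 65.8% over all members and 46.1% over all probe sets. Over the 57 probe sets of the peroxidase list, 29 were below 0 and 28 above. These counts come from the values that chose the members, so roles are not ranked by them. In air the peroxidase and wall medians between genotypes were 0.52 and 0.26, and under hypoxia 0.15 and 0.10. Receptor kinases and kinases lay at -0.07 and -0.10, and members of transcription at -0.06 and -0.15. The roles were assigned by hand with the results known, so these counts describe the members and were not tested.

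**Figure D5:**
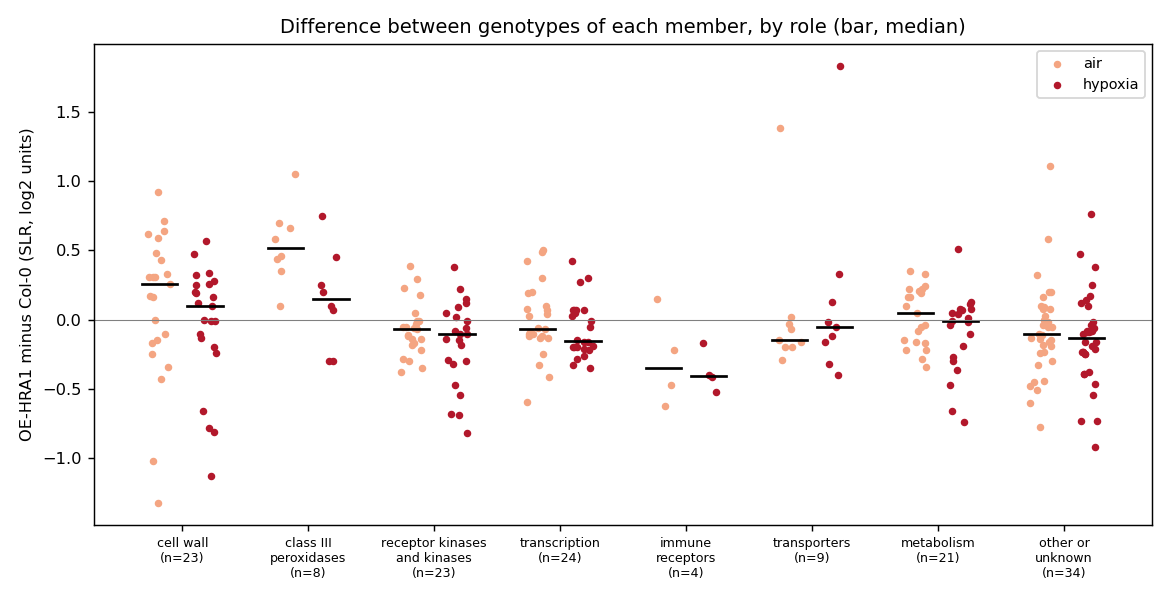
Difference between OE-HRA1 and Col-0 of each member in log2 units, in air and under hypoxia, by role, with bars at the median. Peroxidase members lie above 0 in air (median 0.52), on arrays that helped to choose them, and nearer to 0 under hypoxia (median 0.15). ALMT1 is the highest point among transporters (1.83 under hypoxia).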

How the data were processed

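The authors hybridized biotin-labelled cRNA of 8 samples to ATH1 arrays, made present calls with MAS5 and normalized with RMA, per the methods together with arrays of other plants. The deposited values are log2 RMA signals, used here as given; whether they came from that run is not stated. The 64 control and 101 organelle probe sets were left out of tests, which leaves 22645, and the present-call filter was not repeated. A single limma (3.58.1, R 4.3.3) model of 4 group means was fitted (4 residual and 4.14 prior degrees of freedom), and p-values were Benjamini-Hochberg adjusted over the 22645. Calls needed |SLR| above 1 and adjusted p under 0.01. The model was tested on simulated data. The members, gene lists, roles and tests were chosen with earlier results of these data known. Named were the 10 single-gene members with the lowest mean response, up to 6 per list, the extremes of each genotype contrast, and those at the threshold; others are marked in the text. OE-HRA1 arrays are paired by transgenic line. Deviations from group means correlated at 0.15 within a line, at 0.373 between Col-0 arrays sharing a number, and at -0.195 to 0.012 in the other pairs. The number of arrays limits the precision. Alternatives were another prior, blocks, signal filters, renormalization, compared groups only, other thresholds and leaving out each array. An item withheld for evaluation is not reported here.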

Additional observations from a re-analysis of the deposited data

How the results depend on the processing

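The rule gave 322 members at a threshold of -0.8 and 66 at -1.2, 145 after another quantile normalization, 123 after median centring, and 138 to 170 without a single array. Of the 146, 137 and 123 remained after renormalization, and 116 to 139 without an array. Members called lower numbered 94 to 132 in Col-0 and 101 to 144 in OE-HRA1 without an array, and 97 in Col-0 with the spread of the compared groups only. With the replicate block they numbered 134 and 139. Between genotypes under hypoxia 2 members were called with a trended prior variance, 2 with the replicate block, 0 with OE-HRA1 line as block, 2 at an adjusted p under 0.05, and 0 to 2 without an array. In air 3 were called at an adjusted p under 0.05. The replicate block changed no other count by over 1.5 times, and 0 members were called for the interaction under any alternative run. Probe sets chosen in Col-0 and called in OE-HRA1 numbered 103 to 144 without an array, and the reverse 103 to 139. MYB34's interaction ran from 0.62 to 1.05 without an array, the extremes being without Col-0 air replicate 2 and 1. The cause of these shifts was not tested. With 2 arrays per group the errors rest on the spread pooled over the 4 groups and on the prior.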

Other observations

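Some probe sets lowered by the rule in 1 genotype fell little or not at all in the other. They were not counted, and those named here were singled out after their values were seen. CYP79B2, which converts tryptophan in indole glucosinolate and auxin synthesis, read 10.11 and 10.77 in Col-0 air and 8.98 and 8.70 under hypoxia. The OE-HRA1 values were 9.97 and 9.90 in air, then 9.53 and 10.01, so the treatments overlap. Its SLRs of -1.60 (Col-0) and -0.16 (OE-HRA1) gave an interaction of 1.44 (SE 0.32, adjusted p = 0.237 in limma), on the same side as the 0.84 of MYB34. AT5G10580 was the only probe set lowered by the rule in OE-HRA1 that did not fall below 0 in Col-0. It read 8.51 and 8.49 in Col-0 air and 9.5 and 8.89 under hypoxia, against 9.12 and 9.01 falling to 7.88 and 8.07 in OE-HRA1. Its interaction SLR was -1.78 (SE 0.25, adjusted p = 0.035).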
